A study of Mus musculus with 50 samples.

Results

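The 50 genes described here encode the machinery of mitosis: the kinases and cyclins of mitotic entry, the spindle checkpoint, the chromosomal passenger complex, mitotic kinesins, the centromere and kinetochore, spindle-associated proteins, cytokinesis factors and proteins of chromosome structure. They were taken by symbol as 50 of the 55011 rows of the gene count table, and each was found once. The study sequenced RNA from small sorted samples of mouse regulatory T cells and their thymic precursors, in 50 libraries of 16 groups. Each library came from 500 to 1000 cells that had been sorted a second time, and every group held 3 libraries except the visceral adipose tissue (VAT) groups, which held 4 each.

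In the thymus, CD25-Foxp3+ cells (called P2 in the labels) and CD25+Foxp3- cells (called P1), both CD4+CD8-, were taken from thymi of 3 ages (days 5, 12 and 49) in male B6.Cg-Foxp3tm1Kuch/J mice. In the periphery, CD4+ Foxp3-GFP+ cells were sorted from lung, liver, ear skin, VAT and spleen of male mice with the Foxp3tm3(HBEGF/GFP)Ayr/J allele on a B6.129(Cg) background, aged 20 weeks. All mice carry the genotype label WT, and the Foxp3 reporter alleles are present in every group of their strain. One peripheral arm is labelled DT (diphtheria toxin) and the other PBS. The series text describes diphtheria toxin given on 3 days at 12 weeks to littermates with and without the toxin receptor, followed by 8 to 9 weeks of rest, while the titles name the arms DT and PBS and both carry the same strain label. How receptor status maps to the arms is therefore not settled here, and depletion itself was not measured in these libraries. The labels do not say which libraries came from separate mice, and p-values therefore measure the spread between libraries, which may be technical.

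Cells entering mitosis activate the kinase Cdk1 together with cyclins A and B, condense their chromosomes, attach them to spindle microtubules through kinetochores and divide after the spindle checkpoint is satisfied. Most of the mRNAs for these steps are made in the G2 and M phases, from promoters that often carry a CHR element and CCAAT boxes read by the MuvB, B-Myb and FOXM1 proteins and by NF-Y, so in a sample of many cells their levels follow the share of dividing cells. Regulatory T cells arise in the thymus from precursors that express either CD25 or Foxp3 before both, and in adults they also live in non-lymphoid tissues, where a part of them is activated.

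Library totals ranged from 2521078 to 6981037 counts. Levels are given as CPM, reads of a gene relative to all reads of the library, scaled by the trimmed mean of M values (TMM), and differences as log2 fold changes from edgeR's quasi-likelihood test, called at a Benjamini-Hochberg adjusted p under 0.05 over all genes tested. Foxp3 lay between 260.5 and 810.4 CPM in the P2 libraries and between 4.17 and 17.8 CPM in the P1 libraries, and Il2ra, which encodes CD25, lay between 10.4 and 41.1 CPM in P2 and between 95.6 and 143 CPM in P1, as the sort labels say. In the periphery Foxp3 lay between 138 and 501 CPM, the lowest being spleen PBS-labelled replicate 1. Replicates differed by more than counting noise, with a chi-square per degree of freedom between 3.61 and 66.5 over the pairs within groups. In P1 at day 12 the share of counts in genes averaging under 1 CPM was 0.904% to 1.86% and 27911 to 31478 genes were detected, against 0.279% to 0.315% and 20751 to 21283 genes in P1 at day 5. In P2 at day 49 this share was 0.374%, 1.68% and 2.26% in replicates 1, 2 and 3, with 19951, 27729 and 28765 genes detected. Cd4 had 829, 372 and 230 CPM and Ikzf2 322, 193 and 104 CPM in the same order. The part of these differences in the P2 day 49 results was not tested further. In bulk RNA, fewer dividing cells and less of these mRNAs per dividing cell cannot be told apart.

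A score, the mean log2 CPM over the 50 genes, ordered the 16 groups. P1 cells at day 5 stood highest at 7.11 ± 0.07, followed by P2 at day 5 with 6.73 ± 0.01 and P1 at day 12 with 6.33 ± 0.15 (SD, n = 3 each). These 3 groups were each separated from the next one in this order by a gap between their libraries. Lung PBS-labelled replicate 2, from a group further down, scored 6.27 and lay above the lowest P1 library of day 12 (replicate 2, 6.16). Liver came next with 5.45 ± 0.15 in the DT-labelled and 5.72 ± 0.48 in the PBS-labelled arm, and lung stood at 5.41 ± 0.44 in the DT-labelled and 5.38 ± 0.92 in the PBS-labelled arm. Ear skin stood at 4.67 ± 0.19 in the DT-labelled and 5.31 ± 0.58 in the PBS-labelled arm, with P2 at day 12 (4.98 ± 0.39) and P1 at day 49 (4.73 ± 0.10) between them. VAT stood at 4.42 ± 0.67 and 4.35 ± 0.77 in the DT-labelled and PBS-labelled arms (SD, n = 4 each). At the low end were spleen with 3.75 ± 0.34 in the DT-labelled and 3.36 ± 0.98 in the PBS-labelled arm, and P2 at day 49 with 3.46 ± 0.83. Below P1 at day 12 the libraries of every group overlapped those of the next group in the order.

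**Figure D1:**
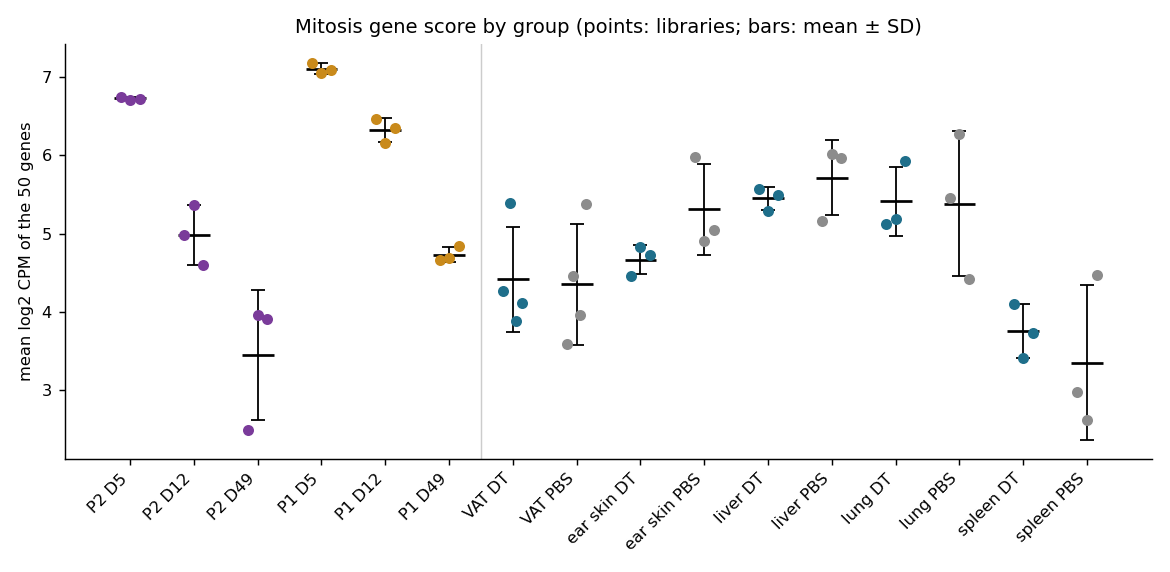
Score of the 50 genes (mean log2 CPM, vertical axis) in each of the 50 libraries (points) by group, with the group mean and SD. Thymic cells at day 5 form the top at 7.11 (P1) and 6.73 (P2), and spleen and P2 at day 49 form the bottom, with wide spread in spleen PBS-labelled, lung PBS-labelled and P2 day 49 libraries.

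In the groups with a wide score, single libraries held the extreme value for most members at once. P2 day 49 replicate 1 held the lowest value of its group for 42 of 50 genes, spleen PBS-labelled replicate 3 held the highest for 42, and in lung PBS-labelled samples replicate 2 held the highest for 47 and replicate 3 the lowest for 45. Across the 50 libraries, 46 of the genes correlated at Pearson r over 0.8 with the mean of the other 49, and 36 at r over 0.9. Top2a, the topoisomerase that untangles sister chromatids, stood highest at 0.99. The points share libraries and groups, so these values are a description. The genes that followed least were Smc4 (-0.03), Wee1 (0.52), Cenpa (0.59) and Diaph3 (0.70). Group means peaked in P1 at day 5 for 47 of 50 genes. The other 3 were Cenpa, highest in DT-labelled liver, Wee1, highest in P1 at day 12, and Smc4, highest in P2 at day 49. The lowest group mean fell in spleen for 26 genes and in P2 at day 49 for 22. No library was at 0 for 43 genes, and 7 genes had a single library at 0.

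With age, almost the whole set fell in both thymic populations. Between day 49 and day 5, 49 of 50 genes were called lower in P2 and 1 higher, against a background of 11.1% of tested genes lower and 14.7% higher. In P1, 49 of 50 were called lower and none higher, against 6.5% of tested genes lower and 4.06% higher. The median log2 fold change was -3.08 in P2 and -2.46 in P1, where the median over all genes tested was 0.08 and 0.00. For these 49 genes the day 49 libraries lay entirely below the day 5 libraries in both populations. Smc4 was the exception in both.

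Entry into mitosis is driven by Cdk1 with its cyclins. In P2, Cdk1 had 172, 166 and 169 CPM at day 5, 49.05, 63.6 and 29.5 CPM at day 12 and 7.27, 20.1 and 23.7 CPM at day 49. In P1 it had 231, 201 and 249 CPM at day 5, 135, 105 and 136 CPM at day 12 and 31.6, 39.5 and 38.1 CPM at day 49. Both series stepped down at each age without overlap, and the change was -3.23 (SE 0.29, edgeR adjusted p = 9.98e-08) in P2 and -2.63 (SE 0.27, edgeR adjusted p = 9.56e-07) in P1 on the log2 scale between day 49 and day 5. Ccna2, cyclin A2, had 353, 371 and 342 CPM at day 5, 98.3, 99.4 and 54.2 CPM at day 12 and 3.36, 13.3 and 18.98 CPM at day 49 in P2. In P1 it had 429, 397 and 433 CPM at day 5, 186, 182 and 204 CPM at day 12 and 49.6, 99.8 and 106 CPM at day 49. Its change in P2 (log2 fold change -4.79, SE 0.36, edgeR adjusted p = 1.15e-08) was the largest among the 50 genes there, and in P1 it was -2.29 (SE 0.30, edgeR adjusted p = 2.12e-05). Ccnb1, cyclin B1, had 127, 121 and 94.7 CPM at day 5, 40.8, 47.8 and 21.7 CPM at day 12 and 1.68, 21.96 and 21.3 CPM at day 49 in P2 and changed by -2.84 between day 49 and day 5. Plk1, the polo-like kinase of centrosome maturation and mitotic exit, had 161, 153 and 152 CPM at day 5, 40.3, 55.1 and 26.3 CPM at day 12 and 2.80, 26.6 and 33.05 CPM at day 49 in P2, a change of -2.80. In P1 these genes changed by -2.86 and -2.57 in the order given. All 8 genes of entry were called lower in both populations, also Wee1, the kinase that holds Cdk1 inactive (-2.38 in P2 and -1.82 in P1), and Foxm1, which encodes the transcription factor (-3.49 in P2 and -2.25 in P1).

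The spindle checkpoint and the anaphase-promoting complex gave 7 of 7 genes lower in both populations. Bub1, a checkpoint kinase at the kinetochore, had 93.2, 63.98 and 83.7 CPM at day 5, 16.3, 26.8 and 10.7 CPM at day 12 and 1.68, 11.1 and 1.92 CPM at day 49 in P2. Its P1 libraries had 114, 91.1 and 119.7 CPM at day 5, 70.4, 70.7 and 56.3 CPM at day 12 and 14.3, 20.2 and 29.1 CPM at day 49. At day 49 every P2 library lay below every P1 library. Between day 49 and day 5 the change was -4.06 (SE 0.46, edgeR adjusted p = 1.71e-06) in P2 and -2.34 (SE 0.37, edgeR adjusted p = 0.000193) in P1. Mad2l1, the checkpoint protein Mad2, changed least of the called genes in P1 (-1.55, with 31.8, 53.8 and 50.9 CPM at day 49 against 131, 143 and 130.2 CPM at day 5). Cdc20, the activator of the anaphase-promoting complex, changed by -2.74 in P2 and -2.66 in P1, and Ube2c, its ubiquitin-conjugating enzyme, by -3.30 and -2.54 in the same order.

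All 4 genes of the chromosomal passenger complex, which corrects wrong attachments between kinetochores and microtubules, were lower in both populations. Birc5, which encodes survivin, had 213, 209 and 216 CPM at day 5, 55.8, 67.8 and 42.1 CPM at day 12 and 5.59, 13.3 and 17.9 CPM at day 49 in P2. Its levels in P1 were 249.97, 235 and 256 CPM at day 5, 159, 119 and 133 CPM at day 12 and 29.2, 39.03 and 41.9 CPM at day 49. Levels stepped down at each age in both, and the changes between day 49 and day 5 were -4.02 (SE 0.26, edgeR adjusted p = 2.03e-09) in P2 and -2.74 (SE 0.23, edgeR adjusted p = 1.15e-07) in P1. Aurkb, the kinase of the complex, had 159, 138 and 162 CPM at day 5, 38.6, 40.7 and 28.5 CPM at day 12 and 2.24, 12.4 and 23.03 CPM at day 49 in P2, where it changed by -3.48 (SE 0.37), and it changed by -2.79 (SE 0.34) in P1. Incenp, the scaffold, had the smallest adjusted p of the 50 genes in P2 (log2 fold change -3.18, SE 0.20, edgeR adjusted p = 1.11e-09), with 25.2, 30.01 and 15.4 CPM at day 49 against 235, 213 and 203 CPM at day 5.

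The 8 kinesins were lower in both populations as well, with changes of -4.06 (Kif18b) to -2.33 in P2 and -2.72 to -2.02 in P1. Kif11, which pushes the spindle poles apart, averaged 13.6 ± 9.65 CPM at day 49 and 121 ± 11.8 CPM at day 5 in P2 (SD, n = 3). Kif18b, which shortens microtubules at their plus ends, averaged 1.52 ± 1.94 CPM at day 49 and 25.2 ± 8.24 CPM at day 5 in P2. Of the 9 centromere and kinetochore genes, all lower in both, Cenpn, which binds the centromeric nucleosome, changed most in P1 (-3.22). Cenpa, the histone H3 variant that marks the centromere, changed least in P2. It had 288, 327 and 290.4 CPM at day 5, 155, 164 and 109 CPM at day 12 and 84.7, 109 and 94.5 CPM at day 49 in P2. Its P1 libraries had 289, 276 and 272 CPM at day 5, 179.5, 137 and 144 CPM at day 12 and 75.03, 66.8 and 63.1 CPM at day 49. Neither series overlapped between day 5 and day 49 (log2 fold change -1.59, SE 0.15, edgeR adjusted p = 1.52e-07 in P2; log2 fold change -2.02, SE 0.15, edgeR adjusted p = 2.02e-08 in P1).

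The spindle-associated proteins (Tpx2, Hmmr, Nusap1 and Prc1) gave 4 of 4 lower in both, with medians of -3.12 in P2 and -2.46 in P1. Among the 3 cytokinesis genes, Anln, which encodes the contractile-ring protein anillin, had 47.5, 26.97 and 33.96 CPM at day 5, 11.6, 11.4 and 12.5 CPM at day 12 and 0, 3.40 and 1.71 CPM at day 49 in P2 and changed by -4.36, against -2.08 in P1. Mki67, the Ki-67 protein that coats mitotic chromosomes, had 191, 202 and 233 CPM at day 5, 61.7, 76.3 and 43.5 CPM at day 12 and 6.71, 29.4 and 29.4 CPM at day 49 in P2. Its levels in P1 were 265, 247 and 252 CPM at day 5, 137, 79.3 and 129 CPM at day 12 and 35.8, 36.4 and 47.4 CPM at day 49. Top2a had 682, 564 and 604 CPM at day 5, 134, 231 and 119 CPM at day 12 and 24.3, 54.1 and 66.9 CPM at day 49 in P2. Libraries of different ages did not overlap for either gene in either population, and levels were lower at each later age. Between day 49 and day 5, Mki67 changed by -3.17 (SE 0.33, edgeR adjusted p = 5.54e-07) in P2 and -2.66 (SE 0.31, edgeR adjusted p = 4.37e-06) in P1, and Top2a by -3.59 (SE 0.28) and -2.59 (SE 0.26) in the same order. Of the 4 condensin genes that fell, Ncapg had the largest change (-4.05 in P2) and Smc2 the smallest (-1.84 in P2 and -1.62 in P1).

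**Figure D2:**
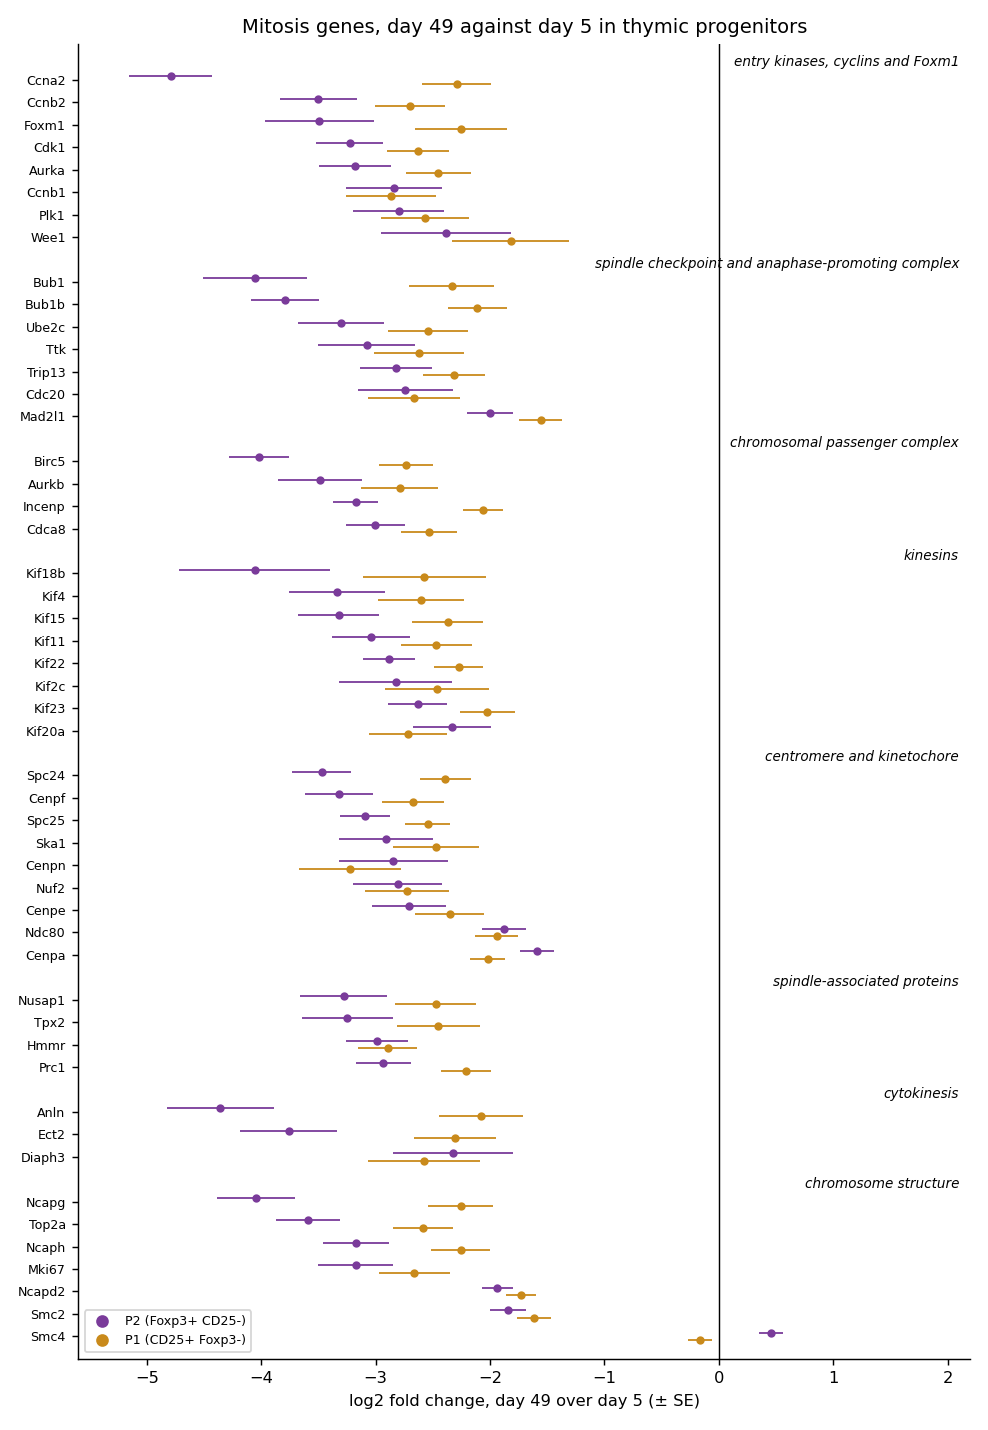
Log2 fold change of day 49 over day 5 (horizontal axis, with SE) for each of the 50 genes, grouped by role, in P2 (purple) and P1 (orange). Apart from Smc4, which lies at 0.46 in P2 and -0.16 in P1, all points lie between -4.79 (Ccna2 in P2) and -1.55 (Mad2l1 in P1).

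From day 5 to day 12, 48 of 50 genes fell in P2 (background 5.16% of tested genes called either way and 3.35% lower; median -1.77), all but Diaph3 and Smc4, while 24 fell in P1 (background 8.16% lower and 10.1% higher; median -0.79). In P1 the sign was still negative for 49 of 50, the exception being Wee1 (0.89, edgeR adjusted p = 0.195). From day 12 to day 49, 34 genes fell and Smc4 rose in P2 (background 5.97% lower and 9.02% higher; median -1.26), and 48 fell in P1 (background 13.5% lower and 10.2% higher; median -1.70), all but Foxm1 and Smc4. The P1 count between day 12 and day 5 was 42 with limma voom, 43 with the compared libraries only and 6 to 16 when any one of the 6 libraries was left out (9, 12 and 11 without day 5 replicates 1, 2 and 3, and 16, 6 and 11 without day 12 replicates 1, 2 and 3). The P2 count between day 49 and day 12 was 1 with the compared libraries only, 19 with limma voom and 19 without day 12 replicate 2. The P1 count between day 49 and day 12 was 22 when the low-gene share of counts entered the fit. In P1 at day 12, 8 lists of markers of other cells lay above day 5 in every library, among them hepatocyte markers (summed CPM 24.8 to 31.7 at day 12 against 7.04 to 10.4 at day 5; 5 of 6 with the higher mean), dendritic-cell markers (14.0 to 20.4 against 6.10 to 8.64; 5 of 6) and fibroblast markers (5.17 to 11.5 against 0.320 to 1.97; 6 of 6). Another of these lists held markers of immature and CD8 thymocytes (80.3 to 85.3 against 57.9 to 66.7, with 7 of 7 having the higher mean). Cd4 had 335, 315 and 334 CPM in P1 at day 12 against 696, 663 and 651 CPM at day 5. The part of these in the P1 changes was not tested. In the P2 day 49 libraries the summed CPM of 8 macrophage and monocyte markers was 23.3 to 133, against 5.21 to 12.5 in P2 at day 5 (Lyz2 and Adgre1 at 0), 7 of the 8 having the higher mean, and its part in the result was not tested.

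Promoters are shown because the members moved together. RefSeq promoter sequences on GRCm38.p6, from 250 bases before to 50 after the start, were matched for 40 of the 50 genes. Searched on both strands, a CHR element (TTTGAA or TTCGAA) was found in 32 of the 40 (80%), against 19.4% of the 27025 promoters of the table. A CCAAT box was found in 30 (75%), against 37.9% of all promoters, and both together in 27 (67.5%), against 7.70%. An E2F site (searched as TTCCCGC, with the variant TTCGCGC, the variant TTGCCGC and the variant TTGGCGC) was found in 10 (25%), against 9.69%. For comparison, 56 promoters of mitotic genes outside the 50 held a CHR in 55.4%, a CCAAT box in 67.9%, both in 42.9% and an E2F site in 25%. The 23 promoters of DNA replication genes held a CHR in 21.7%, a CCAAT box in 69.6%, both in 17.4% and an E2F site in 60.9%. A match is a run of letters and does not show binding. The first 4 promoters below are those of genes with both motifs and the largest falls between day 49 and day 5, and the last 2 those with the smallest falls, whatever their motifs. By size of fall alone Birc5, with neither motif, and Anln, with a CHR and no CCAAT box, would also be among the top 4, so the choice shows nothing of a link between motifs and falls. Within the stretch shown, Smc2 holds both motifs and Mad2l1 neither, which says only that these letters are not in that stretch. Each is shown from 200 bases before to 30 after the start, 5′ to 3′ on the gene's strand, with capitals marking CHR and CCAAT matches on either strand, so that TTCAAA and ATTGG are the same motifs read from the other strand. Kif18b lies at chr11:102925095-102925324 (minus strand), Bub1 at chr2:127831830-127832059 (minus), Ncapg at chr5:45669725-45669954 (plus), Ccnb2 at chr9:70421525-70421754 (minus), Smc2 at chr4:52439021-52439250 (plus) and Mad2l1 at chr6:66535021-66535250 (plus).
Kif18b: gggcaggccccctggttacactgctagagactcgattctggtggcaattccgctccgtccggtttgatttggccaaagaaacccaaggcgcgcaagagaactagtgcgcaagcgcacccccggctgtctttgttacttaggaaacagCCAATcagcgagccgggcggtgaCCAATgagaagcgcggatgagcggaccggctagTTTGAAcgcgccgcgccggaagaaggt
Bub1: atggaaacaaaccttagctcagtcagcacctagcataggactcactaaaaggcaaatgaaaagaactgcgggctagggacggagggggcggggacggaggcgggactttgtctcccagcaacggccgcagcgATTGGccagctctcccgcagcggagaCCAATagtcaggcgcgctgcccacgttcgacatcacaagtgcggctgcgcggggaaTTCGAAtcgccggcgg
Ncapg: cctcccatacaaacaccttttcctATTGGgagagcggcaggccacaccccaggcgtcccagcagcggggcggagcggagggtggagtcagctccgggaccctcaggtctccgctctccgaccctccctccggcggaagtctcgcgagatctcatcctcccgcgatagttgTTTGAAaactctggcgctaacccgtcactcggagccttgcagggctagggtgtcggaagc
Ccnb2: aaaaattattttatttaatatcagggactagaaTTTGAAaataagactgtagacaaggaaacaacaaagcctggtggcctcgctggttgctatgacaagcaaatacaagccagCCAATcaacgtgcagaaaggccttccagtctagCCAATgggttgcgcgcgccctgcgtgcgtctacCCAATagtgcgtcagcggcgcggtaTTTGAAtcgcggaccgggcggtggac
Smc2: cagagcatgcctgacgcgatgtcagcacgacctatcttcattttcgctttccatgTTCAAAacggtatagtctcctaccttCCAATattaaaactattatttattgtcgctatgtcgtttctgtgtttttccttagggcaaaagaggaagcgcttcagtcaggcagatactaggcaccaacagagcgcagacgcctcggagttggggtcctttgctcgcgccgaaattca
Mad2l1: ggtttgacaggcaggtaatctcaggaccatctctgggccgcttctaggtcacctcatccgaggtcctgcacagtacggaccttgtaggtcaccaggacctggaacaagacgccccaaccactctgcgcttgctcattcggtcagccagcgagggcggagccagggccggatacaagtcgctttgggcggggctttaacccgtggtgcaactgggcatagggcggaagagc

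Set against P1 at the same age, P2 had few called genes at day 5 and was lower in most of the set at day 12. At day 5, 1 gene was higher and 5 were lower in P2 (background 6.79% higher and 8.41% lower; median -0.38): Smc4 higher, and Trip13, Ncapd2, Spc24, Mad2l1 and Smc2 lower. The number lower was near its background share. Changes were small but mostly of the same sign, 48 of 50 being negative, against 50.2% of all genes tested. The score was 6.71 to 6.74 in the P2 libraries and 7.05 to 7.18 in the P1 libraries of day 5. Trip13, an ATPase that remodels Mad2, had 30.4, 30.3 and 34.9 CPM in P2 and 69.9, 59.8 and 66.02 CPM in P1, without overlap (log2 fold change -1.005, SE 0.26, edgeR adjusted p = 0.0094). Spc24, a subunit of the Ndc80 complex, had 111, 114 and 108 CPM in P2 and 196, 199.6 and 189.9 CPM in P1 (log2 fold change -0.79, SE 0.21, edgeR adjusted p = 0.0118). The count at day 5 was 23 with limma voom and 27 with only the 6 compared libraries in the fit, and it was 2 to 4 with one library left out (3 without P1 replicate 1, and 2, 3 and 3 without P2 replicates 1, 2 and 3).

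At day 12, 47 genes were lower and 1 was higher in P2 (background 23.8% lower and 17.6% higher, 41.4% in all; median -1.41). The 2 genes not called were Foxm1 and Cenpa, and the 1 higher was Smc4. Wee1 differed most, with 2.18, 3.95 and 5.46 CPM in P2 and 35.4, 27.1 and 21.8 CPM in P1 (log2 fold change -2.92, SE 0.52, edgeR adjusted p = 0.000196). Mki67 had 61.7, 76.3 and 43.5 CPM in P2 and 137, 79.3 and 129 CPM in P1, again without overlap (log2 fold change -0.99, SE 0.30, edgeR adjusted p = 0.0121). When the low-gene share of counts entered the fit, 27 genes were called in place of 48, and that share was 0.904% to 1.86% in the P1 libraries; its part in the result was not tested further. At day 49, 30 genes were lower and 2 higher in P2 (background 12.9% lower and 16.6% higher; median -0.99). The count of 32 was 12 with limma voom and 10 with the compared libraries only. The genes lower were 4 of 4 of the passenger complex, 5 of 8 of entry and 3 of 9 of the centromere and kinetochore, where Cenpa was higher. Anln had 0, 3.40 and 1.71 CPM in P2 and 13.8, 9.32 and 6.77 CPM in P1 (log2 fold change -2.47, SE 0.50, edgeR adjusted p = 0.00103), while Kif20a, a kinesin of the central spindle, was not called (log2 fold change -0.03, SE 0.35, edgeR adjusted p = 0.954). The summed CPM of 7 markers of immature and CD8 thymocytes lay lower in P2 at each age without overlap. At day 5 it was 37.9 to 47.1 against 57.9 to 66.7, and at day 12 27.9 to 35.2 against 80.3 to 85.3. In both, 0 of 7 were higher by mean in P2. At day 49 it was 41.2 to 55.3 against 103 to 117, with 2 of 7 higher. Sums of B-cell and of endothelial markers lay higher in P2 at each age. The part of these lists was not tested.

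Ccna2 was the 1 gene whose change with age differed between the populations by the interaction test (P2 minus P1 difference -2.50, SE 0.46, edgeR adjusted p = 0.0266; background 0.218% lower and 0.157% higher). At day 49 it had 3.36, 13.3 and 18.98 CPM in P2 and 49.6, 99.8 and 106 CPM in P1, and at day 5 353, 371 and 342 CPM in P2 and 429, 397 and 433 CPM in P1. The P2 libraries lay below the P1 libraries at both ages, and the gap was wider at day 49. It was called in 7 of the 12 fits that left out one library, with adjusted p up to 0.0772, and not with the compared libraries only (adjusted p = 0.0658). Without P2 day 49 replicate 1, 2 or 3, the number of the 50 genes called in this test was 8, 5 and 7, and the fits that lost Ccna2 left out P1 day 5 replicate 2, P2 day 5 replicate 1 or 3, or P1 day 49 replicate 2 or 3 and called 0. More of the 50 genes were called without the low-count filter or with DESeq2. Of the 50 differences, 43 were negative, with a median of -0.60, where the median over all genes tested was 0.06.

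Smc4 moved against the rest of the set. It encodes the condensin ATPase subunit that pairs with Smc2 in both condensin complexes. In P2 it had 960.2, 1007 and 1089 CPM at day 5, 1185, 1105 and 1010.1 CPM at day 12 and 1336, 1199 and 1499 CPM at day 49. In P1 it had 546, 599 and 569 CPM at day 5, 557, 440.3 and 541 CPM at day 12 and 456, 517 and 548 CPM at day 49. P2 libraries lay above P1 libraries at each age, by 0.86 at day 5, 1.03 at day 12 and 1.48 at day 49 on the log2 scale (edgeR adjusted p = 5.82e-06, 2.92e-07 and 8.78e-09). Between day 49 and day 5 it rose in P2 by 0.46 (SE 0.10, edgeR adjusted p = 0.00363), while the P1 change of -0.16 (SE 0.10) was not called (edgeR adjusted p = 0.383). The rise in P2 was not called without the low-count filter (0.22, adjusted p = 0.264), with the compared libraries only (0.49, adjusted p = 0.0555) or with the share of low genes as covariate (0.39, adjusted p = 0.0633). Per kilobase of exon, Smc4 stood at 258 CPM in P2 at day 49, where Top2a stood at 5.38 and Mki67 at 2.17, and at 110 CPM in P1 at day 5, where Top2a stood at 82.4 and Mki67 at 25.3. Its partner Smc2 fell with the rest.

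Cenpa was the other gene higher in P2 at day 49. Its libraries had 84.7, 109 and 94.5 CPM in P2 and 75.03, 66.8 and 63.1 CPM in P1, without overlap (log2 fold change 0.57, SE 0.15, edgeR adjusted p = 0.00861). The direction held in every setting tried, but the call was lost without the low-count filter (adjusted p = 0.186), with the compared libraries only (0.0694), with the share of low genes as covariate (0.154), without P2 day 49 replicates 2 and 3 together (0.288), and when P1 day 49 replicate 3 (0.0531) or P2 day 49 replicate 2 (0.0537) was left out.

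Of 69 other mitotic genes, 60 were lower in P2 and 61 in P1 between day 49 and day 5, with none higher (medians -2.54 and -2.09; background 11.1% of tested genes lower in P2 and 6.5% in P1). Among them Racgap1, a regulator of the central spindle, changed by -2.43 in P1. Of 28 DNA replication genes, 26 were lower in P2 and 28 in P1 (medians -1.94 and -1.66). At day 5, 24 of these 28 were lower in P2 than in P1 (median -0.88), beside 5 of the 50 mitotic genes. The replication score was 6.46 in P2 and 7.42 in P1 at day 5. Of 15 genes of the MuvB, DREAM and NF-Y regulators, 3 were lower in P2 and 4 in P1, with medians of -0.22 and -0.12 and 4 genes positive in each. Mybl2, which encodes B-Myb, changed by -2.07 in P2.

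In the periphery, most of the 50 genes were higher in tissue than in spleen, in lung and liver of both arms and in ear skin of the PBS-labelled arm. In lung, 29 genes were higher and 1 lower in the DT-labelled arm (background 8.92% higher and 5.53% lower; median 1.69), and 36 higher and 1 lower in the PBS-labelled arm (7.53% and 9.49%; median 1.96). In liver, 26 genes were higher and 1 lower in the DT-labelled arm (8.03% and 5.15%, 13.2% in all; median 1.72), and 44 higher and 1 lower in the PBS-labelled arm (8.62% and 9.34%; median 2.16). The gene lower was Smc4 each time. Higher in both arms were 27 genes in lung and 25 in liver. The 4 comparisons within an arm share its spleen libraries.

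Kif23, a kinesin of the central spindle and midbody, had the largest change over spleen in lung of both arms and in DT-labelled liver. In the DT-labelled arm it had 122, 127 and 118 CPM in lung, 87.8, 127 and 51.1 CPM in liver and 18, 6.38 and 8.46 CPM in spleen. In the PBS-labelled arm it had 131, 104 and 99.6 CPM in lung, 88.8, 114 and 87.5 CPM in liver and 9.23, 3.33 and 21.6 CPM in spleen. Every lung and liver library lay above every spleen library. The log2 fold changes over spleen were 3.48 (edgeR adjusted p = 3.32e-07) and 3.30 (edgeR adjusted p = 9.36e-07) in lung of the DT-labelled and PBS-labelled arms, and 2.999 and 3.09 in liver.

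Cenpa had the smallest adjusted p in lung and liver of both arms. In the DT-labelled arm it had 487, 577 and 452 CPM in lung, 612, 596 and 504 CPM in liver and 87.03, 75.2 and 100.4 CPM in spleen. The PBS-labelled arm had 491, 361 and 459 CPM in lung, 548, 461 and 534 CPM in liver and 104, 77.1 and 91.3 CPM in spleen. Every lung and liver library stood at 361 CPM or more, above every spleen library and above every thymic library of Cenpa. Its changes over spleen were 2.55 and 2.25 in lung and 2.71 and 2.48 in liver of the DT-labelled and PBS-labelled arms (edgeR adjusted p at most 2.05e-09). In ear skin it had 106, 151 and 111 CPM in the DT-labelled and 163, 127 and 135 CPM in the PBS-labelled arm, and in VAT 137, 119, 98.3 and 92.2 and 84.9, 57.6, 86.7 and 133 CPM in the same order. Skin and VAT libraries lay between 57.6 and 163 CPM, against 75.2 to 104 CPM in spleen. The change over spleen was called in skin of the PBS-labelled arm (0.64, edgeR adjusted p = 0.0208) and not in the other 3 comparisons of skin and VAT.

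Mki67 in the DT-labelled arm had 124, 99.3 and 181 CPM in lung, 164, 134 and 139 CPM in liver and 35.8, 22.7 and 47.6 CPM in spleen. Its PBS-labelled libraries had 147, 254 and 57.8 CPM in lung, 144, 195 and 239 CPM in liver and 21.3, 8.22 and 55.96 CPM in spleen. Tissue libraries lay above spleen libraries throughout, with lung PBS-labelled replicate 3 close to spleen PBS-labelled replicate 3. The changes over spleen were 1.96 and 2.44 in lung and 2.05 and 2.75 in liver (DT-labelled, then PBS-labelled; all called). In the PBS-labelled arm, liver over spleen called 9 of 9 centromere and kinetochore genes, 4 of 4 passenger-complex genes, 4 of 4 spindle-associated genes, 7 of 8 kinesins, 6 of 8 entry genes, 5 of 7 checkpoint genes and 3 of 3 cytokinesis genes. Examples by group mean are Cdk1 (82.1 ± 37.9 CPM in liver and 20.2 ± 16.4 CPM in spleen), Birc5 (112 ± 37.6 and 26.6 ± 18.3 CPM) and Bub1 (34.1 ± 8.13 and 3.53 ± 5.28 CPM; SD, n = 3). Ndc80, which grips the microtubule at the kinetochore, changed by 1.41 and 1.43 over spleen in liver of the DT-labelled and PBS-labelled arms.

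The lung and liver counts leaned on single libraries. Lung over spleen in the PBS-labelled arm gave 16 calls without lung replicate 2, 23 without spleen replicate 1 and 21 without spleen replicate 2, and 17 with the compared libraries only; liver over spleen in the PBS-labelled arm gave 26 without spleen replicate 1 and 25 without spleen replicate 2. The liver count of the DT-labelled arm, 27 in all, was 44 without the low-count filter and 46 with the compared libraries only, and the lung count of the PBS-labelled arm, 37 in all, was 8 with those libraries and the replicate block. In the DT-labelled arm, lung gave 11 without spleen replicate 5, 18 without spleen replicate 6 and 16 without lung replicate 6, and liver gave 9, 14 and 17 without spleen replicate 5, spleen replicate 6 and liver replicate 4. In the PBS-labelled arm the summed CPM of 6 hepatocyte markers was 129.9 to 219 in lung and 188 to 291 in liver, against 3.98 to 10.03 in spleen (Apoa1 at 0), with 3 of 6 markers higher by mean in lung and 5 of 6 in liver. That of 6 dendritic-cell markers was 60.4 to 79.5 in lung and 45.4 to 48.4 in liver, against 16.3 to 32.2 in spleen, and the part of either in the result was not tested.

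**Figure D3:**
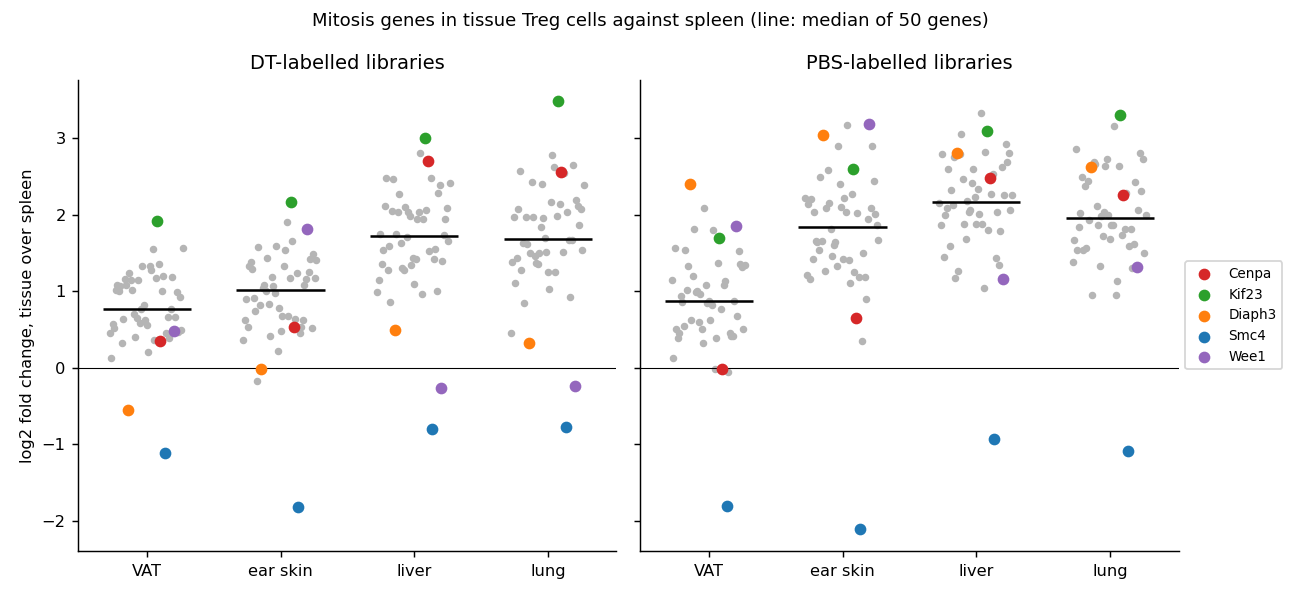
Log2 fold change of each tissue over spleen for the 50 genes (points), in the DT-labelled arm (left panel) and the PBS-labelled arm (right panel), with the median as a line and 5 genes marked. The bulk of the points lies above 0 in lung and liver (medians 1.69 to 2.16), and Smc4 lies below 0 in all 8 comparisons. Cenpa lies lower in skin and VAT than in lung and liver.

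In ear skin, 5 genes were higher and 1 lower in the DT-labelled arm (background 10.5% higher and 11.5% lower; median 1.02), and 33 higher and 1 lower in the PBS-labelled arm (10.3% and 14.8%; median 1.83). In VAT, 1 gene was higher and 1 lower in the DT-labelled arm (5.27% and 3.54%; median 0.77), and 8 higher and 1 lower in the PBS-labelled arm (7.56% and 8.35%; median 0.87). In DT-labelled VAT 48 of 50 log2 fold changes were positive, where the median over all genes tested was -0.01. The counts of DT-labelled skin and VAT, 6 and 2 in all, were 27 and 18 without the low-count filter, 33 and 5 with the compared libraries only, and 34 and 32 with those libraries and the replicate block. In DT-labelled skin the count was also 11 with DESeq2 and 2 when the low-gene share entered the fit, and in PBS-labelled skin, 34 in all, it was then 19. In PBS-labelled VAT, 9 in all, it was 25 without the filter and 2 with the compared libraries only. Kif23 was higher in all 4: it had 56.3, 49.4 and 39.1 CPM in DT-labelled skin and 58.5, 56.1, 30.5 and 22.4 CPM in DT-labelled VAT, with changes over spleen of 2.16 and 1.92. PBS-labelled libraries held 76.5, 54.6 and 72 CPM in skin and 25.4, 29.04, 37.7 and 55.1 CPM in VAT (2.60 and 1.69). The other genes higher in DT-labelled skin were Wee1, Mki67, Prc1 and Kif11. The counts in skin were 15 to 47 in the PBS-labelled arm when one library was left out (15 without skin replicate 1, 21 without spleen replicate 1, 19 without spleen replicate 2), and in VAT 3 to 27 (3, 4, 27 and 4 without spleen replicates 1, 2 and 3 and VAT replicate 4). In the DT-labelled arm they were 2 to 4 in skin (3, 2 and 3 without spleen replicates 4 and 5 and skin replicate 6) and 2 in VAT with one library left out. The summed CPM of 6 fibroblast markers was 20.2 to 28.5 in DT-labelled skin against 0.796 to 3.59 in DT-labelled spleen, with 6 of 6 higher by mean. That of 6 mesothelial markers was 107 to 169 in PBS-labelled VAT against 8.16 to 10.05 in PBS-labelled spleen, with 2 of 6 higher by mean. Other sums overlapped spleen but spread widely between VAT libraries. That of 8 B-cell markers was 796 to 9387 in DT-labelled VAT, against 1445 to 1959 in DT-labelled spleen. In PBS-labelled VAT it was 405 to 8380, against 1587 to 1925 in PBS-labelled spleen. The sum of the fibroblast markers was 2.36 to 555 in DT-labelled VAT. The part of any of these lists was not tested.

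Wee1 was among the genes with the largest change in PBS-labelled skin. It had 26.04, 19.6 and 28.2 CPM in skin and 9.96, 3.19 and 8.46 CPM in spleen of the DT-labelled arm. The libraries labelled PBS had 18.1, 36.3 and 22.8 CPM in skin and 0.165, 3.52 and 5.04 CPM in spleen. All 6 skin libraries lay above all 6 spleen libraries (log2 fold change 1.81, SE 0.55, edgeR adjusted p = 0.0169 in the DT-labelled arm; log2 fold change 3.18, SE 0.59, edgeR adjusted p = 0.000114 in the PBS-labelled arm). In lung Wee1 averaged 6.01 ± 1.01 CPM in the DT-labelled arm and 7.08 ± 3.19 CPM in the PBS-labelled arm, and in liver 5.86 ± 3.35 and 6.43 ± 2.60 CPM in the same order (SD, n = 3). Lung and liver overlapped spleen in both arms, and none of these changes was called (-0.24 and 1.32 in lung, -0.27 and 1.16 in liver). The call in the DT-labelled arm was lost when the low-gene share entered the fit (adjusted p = 0.289), and that share was 1.27% to 2.18% in DT-labelled and 1.15% to 2.28% in PBS-labelled skin.

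Smc4 ran the other way in every tissue of both arms. It had 270.2, 369.9 and 391 CPM in lung, 347, 384 and 298 CPM in liver, 142, 186 and 167 CPM in skin and 524, 715 and 555 CPM in spleen of the DT-labelled arm. In the PBS-labelled arm it had 389, 353 and 400.2 CPM in lung, 432, 459 and 389 CPM in liver, 221, 172 and 162 CPM in skin and 1193, 726 and 494 CPM in spleen. VAT had 251, 256, 241 and 351 CPM in the DT-labelled and 241, 183, 176 and 326 CPM in the PBS-labelled arm. By group mean skin was the lowest and spleen the highest in both arms, and no tissue library reached a spleen library of its arm. The changes over spleen were -0.77 and -1.09 in lung, -0.80 and -0.94 in liver, -1.82 and -2.12 in skin and -1.12 and -1.82 in VAT (DT-labelled, then PBS-labelled; all called). Spleen PBS-labelled replicate 1, the library with the lowest Foxp3 of the periphery, was also the highest for Smc4, and without it the liver call was lost in that arm (-0.53).

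**Figure D4:**
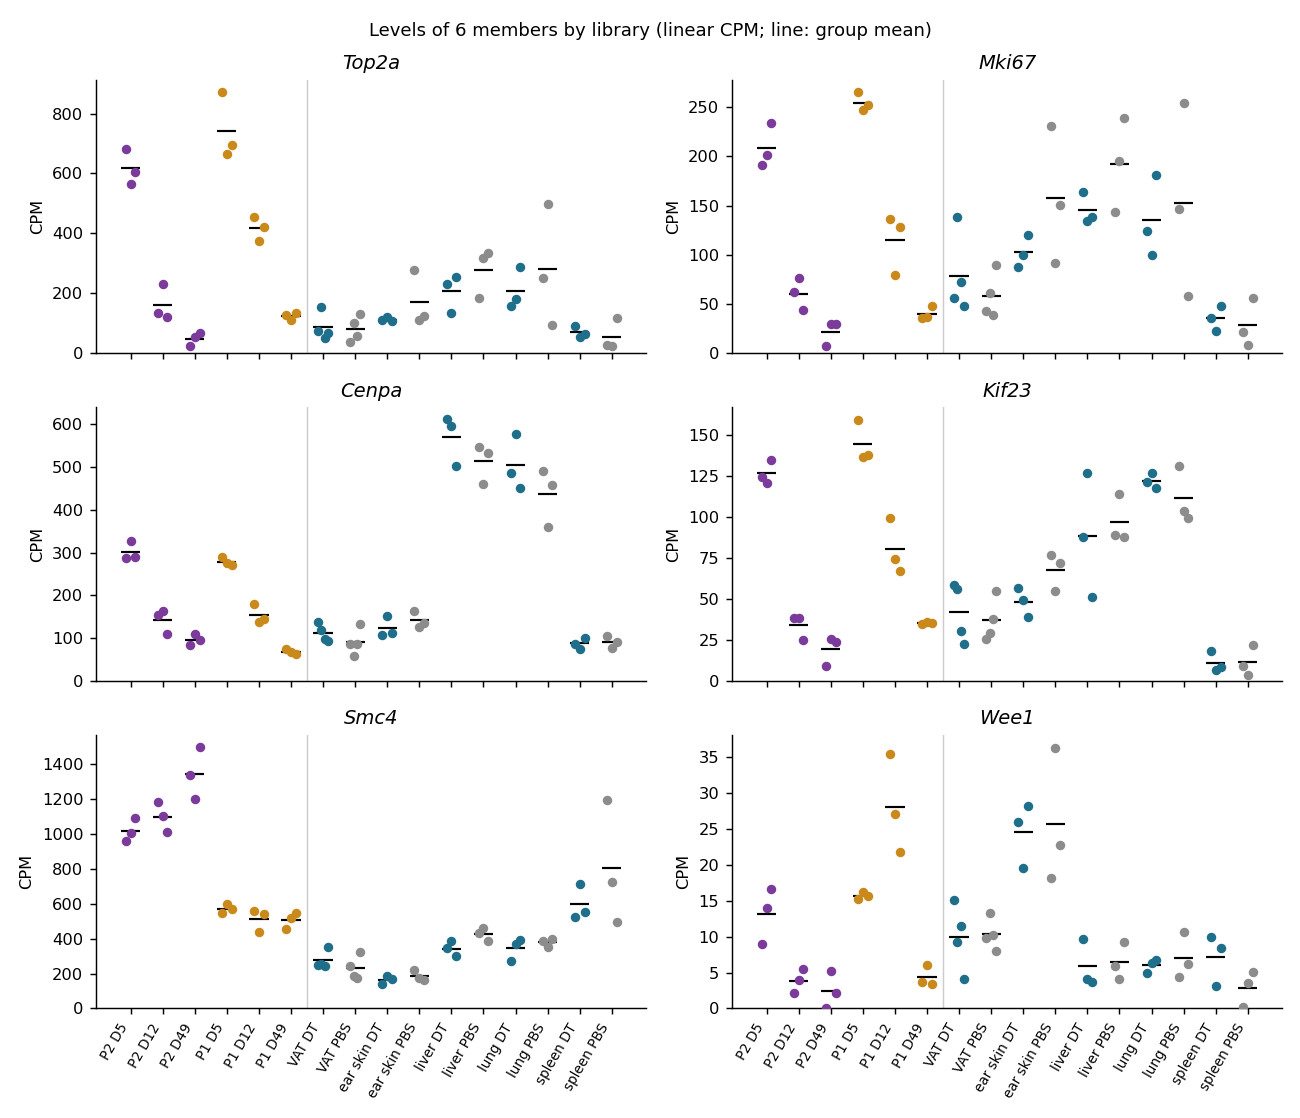
Levels in CPM (vertical axis, linear) of Top2a, Mki67, Cenpa, Kif23, Smc4 and Wee1 in each library (points) by group, with the group mean. Top2a and Mki67 peak in thymic cells at day 5, Cenpa in lung and liver (group means up to 570.5 CPM) and Smc4 in P2 at day 49 (1345 CPM).

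Lists outside the 50 genes are set against the same background shares, which over spleen ran from 5.27% to 10.5% higher. Of 69 other mitotic genes, 30 were higher in lung and 21 in liver of the DT-labelled arm, and 28 and 36 in the PBS-labelled arm, with at most 2 lower in any of the 4. In skin 11 were higher and 3 lower in the DT-labelled arm and 27 higher and 2 lower in the PBS-labelled arm. In VAT 0 were called in the DT-labelled arm and 6 of 69 were higher in the PBS-labelled arm, near the background of 7.56%. Of 28 DNA replication genes, 20 and 11 were higher in lung and liver of the DT-labelled arm and 16 and 17 in those of the PBS-labelled arm, with none lower.

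Between the DT-labelled and PBS-labelled arms of the same tissue, none of the 50 genes passed the test in any of the 5 tissues. The background was 0% of tested genes in spleen, lung and liver, 0.411% in skin and 0.124% in VAT, so edgeR called few genes of any kind. At an unadjusted p under 0.05 there were 0 members in lung, 5 in liver, 23 in skin, 0 in VAT and 1 of 49 tested in spleen, where Kif18b was not tested. Over all genes tested, 412 of 12046 were under it in lung, 525 of 11962 in liver, 955 of 12067 in VAT and 358 of 12453 in spleen. In skin 49 of 50 log2 fold changes were negative, with a median of -0.67, and 1163 of 12653 genes of the table had an unadjusted p under 0.05. The size of this shift leaned on PBS-labelled skin replicate 1, whose score of the 50 genes was 5.98. Replicates 2 and 3 scored 4.91 and 5.05, close to the 4.46 to 4.83 of DT-labelled skin. Cdc20 had the smallest adjusted p there, with 23.7, 39.2 and 40.4 CPM in DT-labelled and 98.4, 59.6 and 55.9 CPM in PBS-labelled skin (log2 fold change -1.01, SE 0.26, edgeR adjusted p = 0.0969). Mki67 had 87.4, 99.9 and 119.9 CPM in DT-labelled and 231, 91.8 and 151 CPM in PBS-labelled skin, and these overlapped (-0.59). DESeq2 called 5 members in skin, edgeR without the filter on low counts called 9, and both called 0 in the other 4 tissues. Macrophage and monocyte markers summed to 18.8 to 25.9 CPM in DT-labelled and 12.8 to 17.9 CPM in PBS-labelled skin, all 8 with the higher mean in DT-labelled skin, and hepatocyte markers to 25.8 to 49.9 CPM in DT-labelled and 69.1 to 93.7 CPM in PBS-labelled skin; their part was not tested.

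**Figure D5:**
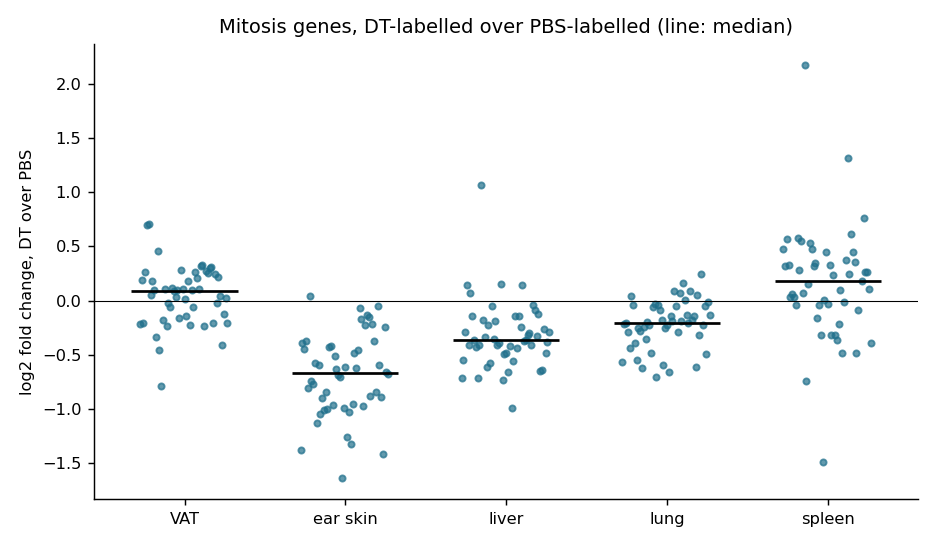
Log2 fold change of the DT-labelled over the PBS-labelled arm for the 50 genes (points) in each of 5 tissues, with the median as a line. The skin points lie below 0 for 49 of 50 genes (median -0.67), and none of the points passed the adjusted threshold.

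Diaph3, a formin that builds actin filaments of the contractile ring, was the 1 member whose difference between arms itself differed from that in spleen, in skin and in VAT. It had 9.72, 5.24 and 5.09 CPM in DT-labelled and 17.6, 8.06 and 12.4 CPM in PBS-labelled skin. In VAT it had 2.80, 4.73, 6.04 and 5.18 CPM in the DT-labelled and 5.75, 7.42, 7.59 and 12.3 CPM in the PBS-labelled arm. In spleen it had 7.51, 6.98 and 6.08 CPM in the DT-labelled and 1.32, 1.37 and 1.92 CPM in the PBS-labelled arm. The arms overlapped in skin and VAT and did not in spleen, where the DT-labelled libraries were higher. The skin minus spleen difference was -3.05 (SE 0.58, edgeR adjusted p = 0.0358; background 0.0169% lower and 0.0338% higher), and the VAT minus spleen difference was -2.95 (SE 0.55, edgeR adjusted p = 0.0481; background 0.0113% lower and 0% higher). Neither was called with limma voom (adjusted p = 0.122 and 0.115) or with the compared libraries only (0.246 and 0.563), and the calls were lost in 9 of 12 and 11 of 14 fits that left out one library. Both differences rest on spleen levels that average 6.86 CPM in the DT-labelled and 1.54 CPM in the PBS-labelled arm.

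Exons of 14 of the 50 genes overlap an exon of another gene in the GENCODE annotation, 3 of them on the same strand (Foxm1, Top2a and Ncapd2). Whether the counting used strand is not given in the sources used here, so reads of such neighbours cannot be told apart for these genes.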

How the data were processed

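RNA of each sorted sample was sequenced, and the authors deposited raw read counts per gene (unit: counts) for 50 libraries. Per the submitters' processing notes, STAR 2.7.3a, featureCounts and mm10 were used; the sources used here give no counting options. The 50 genes and the other lists were chosen with earlier results of these data known. Levels are TMM-scaled CPM over all libraries. The score is the mean log2 CPM (prior count 2) over the 50 genes. Differences were fitted on the counts with edgeR 4.0.16 (R 4.3.3), its quasi-likelihood F test, two-sided, after filterByExpr (minimum count 10, minimum total 15), with Benjamini-Hochberg adjustment over all genes tested. Thymic comparisons came from 1 fit of the 18 thymic libraries, tissue over spleen from 1 fit of the 32 peripheral libraries, and DT over PBS from a fit within each tissue. The fits were tested on simulated data. Alternatives were other size factors, no filter, DESeq2 1.42.0, limma 3.58.1 voom, the compared libraries alone, the share of counts in genes under 1 CPM as covariate, the replicate number as block and leaving out libraries. Counts of calls limit the precision to counting and library spread at 2521078 to 6981037 counts per library. Named genes were the anchors Mki67, Top2a, Cdk1, Ccnb1, Plk1, Aurkb, Birc5, Bub1 and Cenpa, up to 3 members of each role with the smallest adjusted p, the 3 largest and 3 smallest changes, and up to 4 genes of each other list; the other members are named by counts or where they were exceptions. Promoters and exon overlaps came from RefSeq and GENCODE tables. In no comparison did every same-numbered pair of libraries correlate above 0.1 in its deviations from the group means. In liver over spleen of the DT-labelled arm those pairs lay at 0.039 to 0.107, above all other pairs (-0.108 to 0.028). Whether such libraries share a mouse is not given in the labels.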

Additional observations from a re-analysis of the deposited data

Results flagged for a closer look

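In the 2 VAT groups of 4 libraries, 16 of 100 values (50 genes in each group) stood apart from the other 3 by Dixon's test at 95%, where chance alone flags about 1 in 20 groups and genes of one library are not independent. In DT-labelled VAT, replicate 6 was high for 10 genes: Mad2l1 (65.6 CPM), Ttk (10.3 CPM), Cdc20 (80.4 CPM), Incenp (129.7 CPM), Cdca8 (65.8 CPM), Kif2c (25.2 CPM), Kif4 (24.3 CPM), Cenpn (17.2 CPM), Nusap1 (45.4 CPM) and Smc2 (66.7 CPM). Replicate 8 of the same group was high for Smc4 (351 CPM). In PBS-labelled VAT, replicate 4 was high for 5 genes: Ccnb1 (61.7 CPM), Bub1 (27.0 CPM), Cdc20 (97.1 CPM), Ube2c (119 CPM) and Kif11 (55.5 CPM). In both groups most of these genes thus stood apart in a single library.

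For 2 genes an effect differed between groups by a test of the difference itself. The change of Ccna2 between day 49 and day 5 differed by -2.50 (P2 minus P1, log2 scale). The difference of Diaph3 between the DT-labelled and PBS-labelled arms differed by -3.05 between skin and spleen and by -2.95 between VAT and spleen.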

How the results depend on the processing

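Each number here is a count of the 50 genes called, either direction. Of 172 counts from settings other than leaving out a single library, 133 were within 1.5 times the reported count, and all 25 were so with other size factors. The 172 include 4 counts from fits without both P2 day 49 replicates 2 and 3. A count of 0 where 0 was reported, as in most fits of DT over PBS, was taken as within 1.5 times. Of 7076 values under alternatives of the 533 gene and comparison pairs that were called, 0 changed sign. Day 49 over day 5, reported as 50 in P2 and 49 in P1, gave 50 in P2 and 48 to 49 in P1 when one library was left out.

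Beyond 1.5 times were these. With limma voom: P1 day 12 over day 5, 42; P2 day 49 over day 12, 19; P2 over P1 at day 5, 23, and at day 49, 12; the P2 minus P1 interaction, 2; the skin and VAT interactions with spleen, 0 each. With the compared libraries only, 43, 1, 27, 10, 0, 0 and 0 in the same order, and over spleen in the PBS-labelled arm lung 17, liver 26 and VAT 2, and in the DT-labelled arm liver 46, skin 33 and VAT 5. Without the low-count filter: the P2 minus P1 interaction, 23; PBS-labelled VAT, 25; DT-labelled liver 44, skin 27 and VAT 18; DT over PBS in skin, 9. With DESeq2: the P2 minus P1 interaction, 7; DT-labelled skin, 11; DT over PBS in skin, 5. With the low-gene share as covariate: P1 day 49 over day 12, 22; P2 over P1 at day 12, 27; skin 2 in the DT-labelled and 19 in the PBS-labelled arm. Without both P2 day 49 replicates 2 and 3 the interaction gave 29. The causes were not tested.

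The replicate block left all 10 thymic counts within 1.5 times, P1 day 12 over day 5 being 24 with it. Over spleen, the block with the compared libraries only gave lung 8 and VAT 2 in the PBS-labelled arm and liver 46, skin 34 and VAT 32 in the DT-labelled arm. As far as the labels say, the libraries share only a number. No paired analysis was possible for DT over PBS because the arms share no replicate numbers.

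Leaving out one library gave 6 to 16 for P1 day 12 over day 5, 19 to 37 for P2 day 49 over day 12 (19 without P2 day 12 replicate 2), 2 to 4 for P2 over P1 at day 5 and 24 to 40 at day 49, 0 to 8 for the P2 minus P1 interaction, and 0 to 3 and 0 to 1 for the skin and VAT interactions. Over spleen the ranges were 11 to 29 in lung, 9 to 24 in liver, 2 to 4 in skin and 2 in VAT of the DT-labelled arm, and 16 to 46 in lung, 25 to 47 in liver, 15 to 47 in skin and 3 to 27 in VAT of the PBS-labelled arm.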
